A study of Mus musculus with 8 samples.

Results

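The mitotic genes described here were 39 genes of mitotic kinases, cyclins, the anaphase-promoting complex (APC/C), the kinetochore, the spindle and cytokinesis, listed by gene symbol for their known roles. Of these, 38 were found on the array, each with 1 probe set, among 19505 genes with a symbol and 22204 tested probe sets. No probe set with the symbol Ccnb1, the gene of the mitotic cyclin B1, was matched, and it was not analysed here. They were measured in endothelial cells (EC) sorted from lungs of C57BL\6N mice injected subcutaneously at 8 weeks of age with LLC cells, a Lewis lung carcinoma line, so that every mouse carried a primary tumor. Of 8 mice, 4 received control IgG and 4 a TIE1-blocking antibody (AB-Tie1-39), in 2 intraperitoneal injections per week, and the RNA of each mouse went on 1 Clariom S array. Living cells with CD31 on their surface were sorted, leaving out those with CD45, Ter119, PDPN or LYVE1, which mark blood and lymphatic cells. The antibody field of 3 of the 4 anti-TIE1 samples carries another number after TIE, a different one in each, while their titles name TIE1. The tissue protocol speaks of liver while the source is given as lung.

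Cells enter mitosis when cyclin B and CDK1 become active. Kinetochores then join chromosomes to spindle microtubules, the spindle checkpoint holds the APC/C back until all are joined, and the APC/C releases separase and destroys the cyclins, after which the cell divides. Most of these genes are transcribed mainly in G2 and M phase, so in a bulk sample they report how many cells cycle, and EC of the adult lung cycle rarely. In bulk RNA, fewer cycling cells and less RNA per cycling cell cannot be told apart.

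The genes share sequence features that the choice by name did not use. Their transcription is known to run through CCAAT boxes, which bind NF-Y, and through the cell cycle genes homology region (CHR), which binds the MuvB complexes that hold mitotic genes silent in resting cells and activate them in G2. Promoters, taken as 250 bases before to 50 bases after the annotated start (RefSeq, GRCm38.p6), were at hand for 32 of the 39 genes, as 35 promoters, some of which overlap where a gene has more than 1 start. TTTGAA, the main CHR sequence, occurred on either strand in 27 of the 35 promoters (77.1%), against 17.9% of all 32851 promoters. CCAAT occurred on either strand in 28 of 35 (80%), against 37.4%, and 24 of 35 (68.6%) held both, against 6.95%. The CHR variant TTTAAA was found in 9 of 35 (25.7%), against 13.2%. CCAAT can share 1 letter at its end with TTTGAA or TTTAAA, which cannot overlap each other. A match is a description of the letters, not a binding site.

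The 100 bases before the annotated start are printed for 8 genes, 5′ to 3′ on the gene's strand. The genes come from each class and were chosen to show this arrangement or because the results below turn on them. Capitals mark CCAAT (or ATTGG, its complement), TTTGAA (or TTCAAA) and TTTAAA.
Cdk1 (chr10:69352913-69353012, minus strand): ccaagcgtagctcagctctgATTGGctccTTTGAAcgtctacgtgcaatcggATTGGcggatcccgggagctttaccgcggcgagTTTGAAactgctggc
Cdc20 (chr4:118437344-118437443, minus strand): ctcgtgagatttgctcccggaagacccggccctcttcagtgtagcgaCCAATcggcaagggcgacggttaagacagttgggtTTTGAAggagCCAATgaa
Ube2c (chr2:164769829-164769928, plus strand): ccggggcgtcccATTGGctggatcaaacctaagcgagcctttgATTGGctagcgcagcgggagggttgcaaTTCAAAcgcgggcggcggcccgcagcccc
Ttk (chr9:83834589-83834688, plus strand): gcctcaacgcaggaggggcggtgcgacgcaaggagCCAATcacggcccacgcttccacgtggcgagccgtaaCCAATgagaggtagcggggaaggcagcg
Plk1 (chr7:122159335-122159434, plus strand): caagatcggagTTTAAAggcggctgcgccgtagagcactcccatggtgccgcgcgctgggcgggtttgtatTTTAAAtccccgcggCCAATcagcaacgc
Prc1 (chr7:80294376-80294475, plus strand): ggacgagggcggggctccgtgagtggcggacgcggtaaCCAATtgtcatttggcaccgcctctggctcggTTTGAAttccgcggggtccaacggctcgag
Kif11 (chr19:37376282-37376381, plus strand): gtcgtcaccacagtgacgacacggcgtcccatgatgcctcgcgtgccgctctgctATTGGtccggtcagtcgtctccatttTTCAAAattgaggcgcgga
Top2a (chr11:99024190-99024289, minus strand): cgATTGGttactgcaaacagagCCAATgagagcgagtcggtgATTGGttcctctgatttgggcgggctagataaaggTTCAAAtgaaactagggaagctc

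In these stretches CCAAT stands before TTTGAA in Cdk1, Cdc20, Ube2c, Prc1, Kif11 and Top2a. Ttk and Plk1 show CCAAT alone or with TTTAAA here, and their TTTGAA begins 8 and 31 bases after the start. Over all member promoters, 34 matches to TTTGAA were found, 25 of them within 50 bases of the start, and where a CCAAT lay upstream the median distance between the beginnings of the 2 motifs was 32 bases. These values count matches per promoter, so sites in the overlapping promoters of Bub3, Ect2 and Prc1 enter more than once. No match to any of the 3 motifs was found in the windows of Nuf2, Mad2l1 and Pttg1, which says only that these letters are not in that window.

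**Figure D1:**
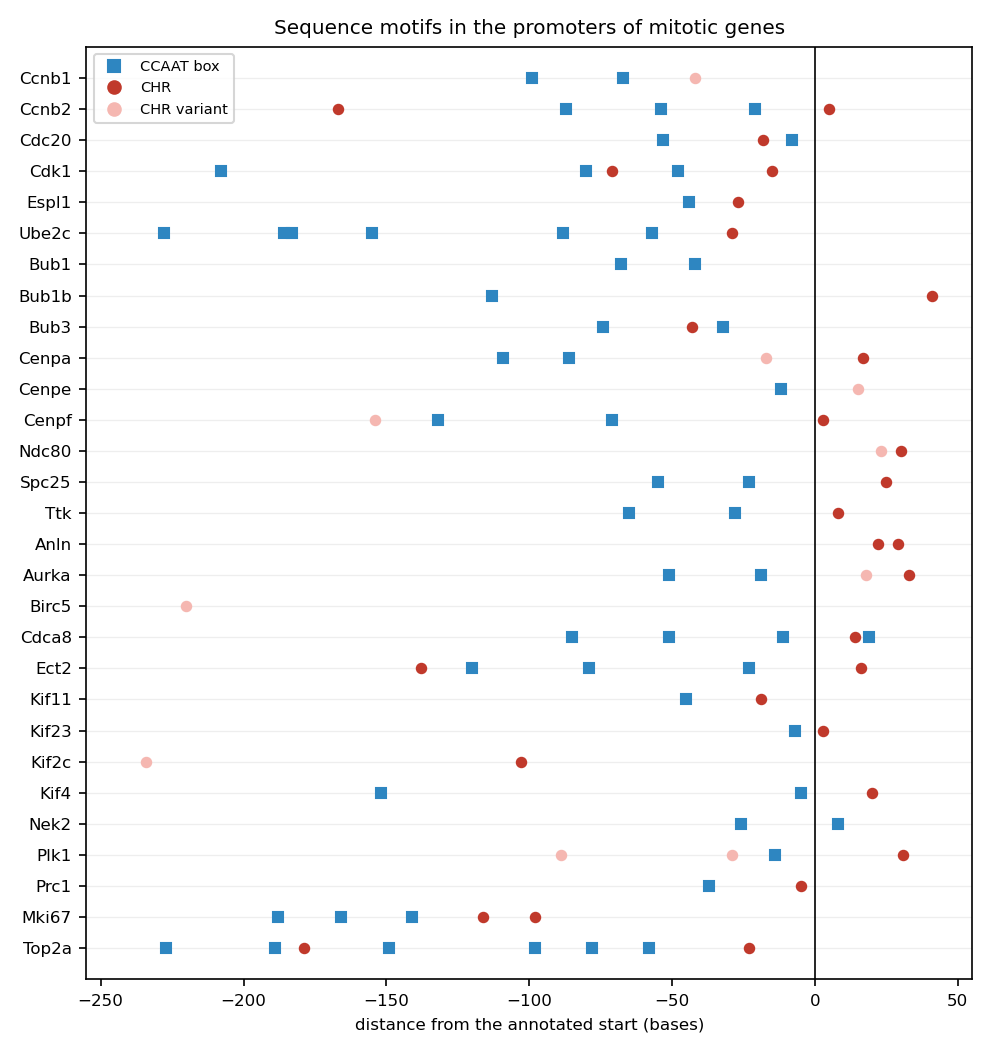
Position of CCAAT boxes (squares), TTTGAA (CHR, dark circles) and TTTAAA (CHR variant, pale circles) in the promoters of the member genes that hold any of them, as bases from the annotated start (x axis), 1 start per gene. CCAAT boxes lie mostly before the start and the CHR near it, with 25 of 34 CHR matches within 50 bases of the start over all promoters. Sites in overlapping promoters are counted in each.

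Values are log2 of the intensities that the authors deposited, which were on a common scale, with array medians of 7.52 to 7.57 over the tested probe sets. The endothelial marker list was bright on all arrays (list means of 11.43 to 11.53, 10 of 10 genes above every background control), as was a list of lung capillary EC (11.25 to 11.35), while the list of liver sinusoidal EC lay at 7.03 to 7.22, with 1 of 8 genes above the controls. Leukocyte markers averaged 7.04 to 7.14 in IgG-treated and 7.01 to 7.05 in anti-TIE1-treated mice (1 of 14 measured genes above the controls). At an unadjusted p under 0.05, 1 of the 14 was higher in anti-TIE1-treated mice (against 2.17% of all probe sets). Lower at that threshold were 2 of the 14 (against 3.15%). Tumor epithelial markers averaged 7.14 to 7.31 and 7.26 to 7.31, with 1 of 6 genes above the controls. Of these 6, 1 was higher and 1 lower, against 2.17% and 3.15% of all probe sets. Alveolar type 2 markers, of an epithelial cell outside the sort, averaged 8.51 to 8.97 in IgG-treated and 8.84 to 9.31 in anti-TIE1-treated mice. Here 6 of 9 genes lay above the controls, and Sftpc was as bright as endothelial markers, with group means of 11.73 and 12.11. Of the 9 genes, 4 were higher at an unadjusted p under 0.05, against 2.17% of all probe sets. Fibroblast and mural markers averaged 7.45 to 7.63 and 7.50 to 7.64, with 3 of 10 measured genes above the controls. Of these 10, 1 was higher and 0 were lower at that threshold, against 2.17% and 3.15% of all probe sets. The part of leukocytes, tumor cells, alveolar type 2 cells, fibroblasts and mural cells in the values of the mitotic genes was not tested. Spike-in controls of the hybridization split the arrays into 4 with low controls (10.26 to 10.37 in log2, IgG 1 and 2, anti-TIE1 3 and 4) and 4 with high ones (10.64 to 10.93, the others), evenly across treatments.

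Most mitotic genes were dim. The array carries 23 background control probe sets, whose probes match no mouse transcript and whose mean log2 intensity runs from 5.63 to 7.87 with the base composition of the probes. Of the 38 genes, 5 (13.2%) averaged above all of these controls, against 40.3% of all tested probe sets, and 10 reached the median of all probe sets of 7.54. The 5 were Pttg1, Ccnb2, Bub3, Cenpa and Birc5. The other 33 averaged within the range of the controls. Since brightness depends on the probes, no order of expression between genes was read from it.

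**Figure D2:**
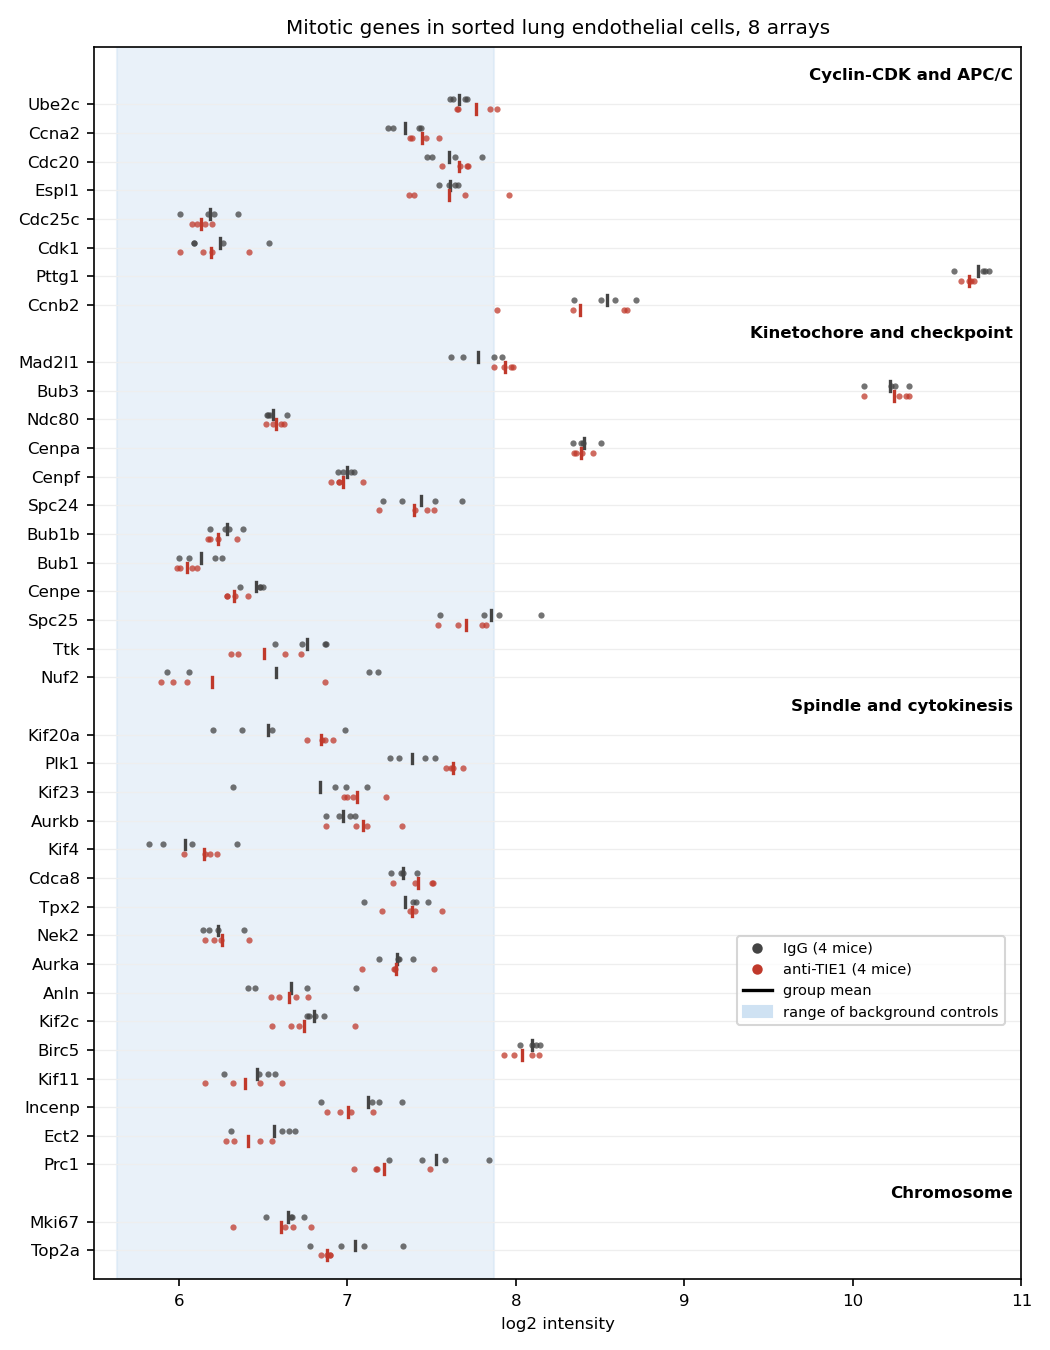
Log2 intensity (x axis) of the 38 measured mitotic genes on each array, IgG in grey and anti-TIE1 in red, 4 mice each, with bars for group means and shading for the range of the background controls (5.63 to 7.87). Only 5 genes average to the right of the shading, and the groups overlap for every gene but Plk1.

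The comparison asks whether RNA of the mitotic program differed in lung EC of mice given the TIE1-blocking antibody. No mitotic gene passed correction over all probe sets with limma, whose test borrows information on the spread from all probe sets (smallest adjusted p = 0.872, for Plk1), and 0 of 22204 probe sets did (0% called, smallest adjusted p = 0.344). An unadjusted p under 0.05 was reached by 3 of 38 genes (against 5.32% of all probe sets), of which 1 was higher in anti-TIE1-treated mice (2.63%, against 2.17%) and 2 were lower (5.26%, against 3.15%). These shares are near the background. Means were higher for 14 of 38 genes (36.8%, against 48.2% of all probe sets) and lower for 24, and the median log2 difference was -0.03, against -0.0045 over all probe sets. The 95% interval of the difference lay within a 1.5-fold change in either direction for 35 of 38 genes, the exceptions being Nuf2, Kif20a and Prc1, and within 2-fold for all but Nuf2. In dim genes a fold change in log2 intensity understates the change in RNA, so these bounds hold for the intensities.

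**Figure D3:**
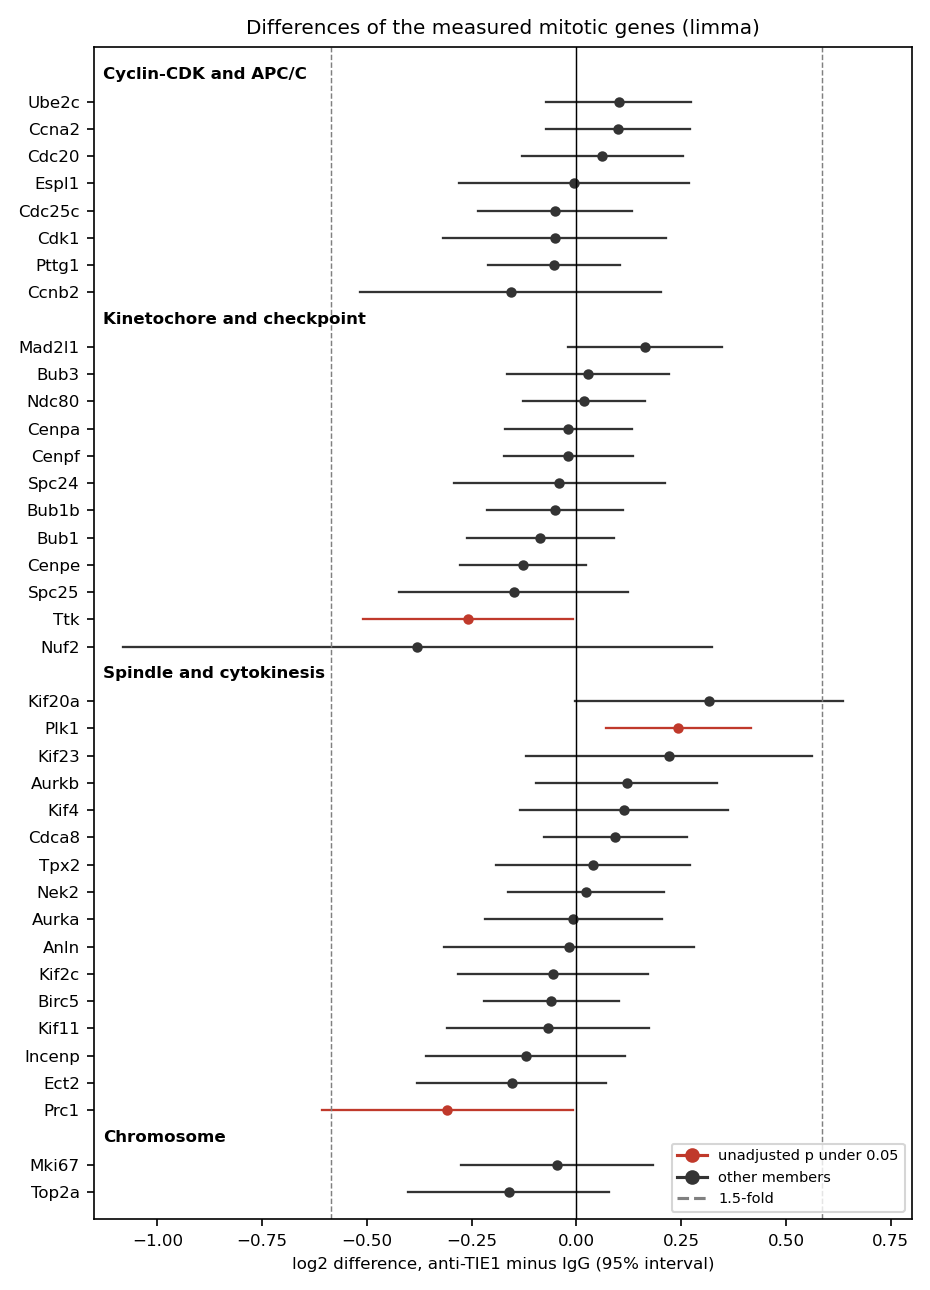
Log2 difference between anti-TIE1-treated and IgG-treated mice (x axis) with its 95% interval from limma, n = 4 mice per group, for each measured mitotic gene by class; red marks an unadjusted p under 0.05 and dashed lines a 1.5-fold change. Plk1 (0.24), Ttk (-0.26) and Prc1 (-0.31) are the genes whose interval leaves out 0.

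Intensities of the genes of cyclins, of CDK1 and of the APC/C with its targets differed little between treatments. Only 2 of these genes, Ccnb2 and Pttg1, averaged above all background controls. Among the 8 measured, means were higher for 3 and lower for 5, no p reached the threshold of 0.05 before adjustment, and the median difference was -0.028. Ccna2, encoding cyclin A2 of S and G2 phase, was at 7.42, 7.24, 7.27 and 7.44 (log2 intensity) on IgG arrays 1 to 4 and at 7.47, 7.37, 7.55 and 7.38 on anti-TIE1 arrays 1 to 4. Ccnb2, the second mitotic B-type cyclin, was at 8.51, 8.34, 8.59 and 8.72 against 8.64, 8.34, 7.89 and 8.66. The groups overlapped for both cyclins, and for Ccnb2 array anti-TIE1 3 lay below all others. Their log2 differences were 0.099 (standard error 0.078) and -0.16 (standard error 0.16).

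Ube2c, the ubiquitin-conjugating enzyme that works with the APC/C, was at 7.71, 7.70, 7.63 and 7.61 in IgG-treated and at 7.85, 7.89, 7.65 and 7.66 in anti-TIE1-treated mice. Anti-TIE1 1 and 2 were above all IgG arrays and anti-TIE1 3 and 4 among them. The log2 difference was 0.10 (standard error 0.078, adjusted p = 0.965 with limma), with 0.25 within the arrays of high spike-in controls and -0.049 within those of low ones. Pttg1, or securin, the inhibitor of separase that the APC/C destroys, was at 10.78, 10.81, 10.60 and 10.77 against 10.69, 10.64, 10.70 and 10.72, a difference of -0.053 (standard error 0.071). Its values lay within 0.21 of each other over the 8 arrays. Among the remaining genes, Cdk1, the kinase itself, differed by -0.052, Cdc25c, the phosphatase that activates it, by -0.051, Cdc20, the APC/C activator held by the checkpoint, by 0.061, and Espl1, or separase, by -0.0054, all on the log2 scale and with limma's unadjusted p between 0.495 and 0.966.

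In the kinetochore and spindle checkpoint class, 9 of 12 means were lower in anti-TIE1-treated mice and 3 were higher, with a median difference of -0.046. Before adjustment 1 of the 12 genes passed, with a lower value (8.33%, against 3.15% of all probe sets). This gene was Ttk, which encodes the checkpoint kinase MPS1. Ttk was at 6.73, 6.87, 6.57 and 6.88 on IgG arrays 1 to 4 and at 6.31, 6.72, 6.63 and 6.35 on anti-TIE1 arrays 1 to 4. Anti-TIE1 1 and 4 were below every IgG array, while anti-TIE1 2 and 3 were among them. The log2 difference was -0.26 (standard error 0.11, unadjusted p = 0.0437 and adjusted p = 0.930 with limma), and the exact two-sided permutation test over the arrays gave p = 0.114. Within the arrays of low and of high spike-in controls it was -0.31 and -0.21. Without 1 array it ran from -0.33 to -0.19, and the unadjusted p stayed under 0.05 only without IgG 3, anti-TIE1 2 or anti-TIE1 3.

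The other checkpoint proteins did not follow 1 direction. Mad2l1, whose protein MAD2 binds and blocks CDC20, was at 7.87, 7.92, 7.62 and 7.69 against 7.87, 7.97, 7.98 and 7.93. The anti-TIE1 arrays lay close together, above IgG 3 and 4. The difference was 0.16 (standard error 0.083, unadjusted p = 0.076 with limma, exact permutation p = 0.0857). Bub3, the adaptor of BUB1 and BUBR1, was at 10.23, 10.25, 10.07 and 10.33 against 10.33, 10.28, 10.31 and 10.06, a difference of 0.028 (standard error 0.087). Bub1 and Bub1b, encoding those 2 checkpoint proteins, differed by -0.086 and -0.051, with intervals that held 0.

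Cenpe, the kinesin that carries chromosomes at the kinetochore, was at 6.48, 6.36, 6.48 and 6.50 in IgG-treated and at 6.41, 6.29, 6.34 and 6.29 in anti-TIE1-treated mice. Array IgG 2 lay among the anti-TIE1 values and the other 3 IgG arrays above all of them. The difference was -0.13 (standard error 0.068, unadjusted p = 0.0888 with limma, exact permutation p = 0.0571), with -0.11 and -0.14 within low and high spike-in controls. Cenpa, the histone H3 variant that marks centromeres, was at 8.40, 8.34, 8.39 and 8.51 against 8.40, 8.46, 8.36 and 8.34, a difference of -0.019 with a 95% interval of -0.17 to 0.13. Its values differed by no more than 0.17 between any 2 arrays. Cenpf, a kinetochore and nuclear envelope protein of G2, differed by -0.02.

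The NDC80 complex, the main microtubule binder of the kinetochore, has 4 subunits, Ndc80, Nuf2, Spc24 and Spc25. Spc25 was at 7.81, 7.55, 8.15 and 7.90 against 7.66, 7.80, 7.82 and 7.54, a difference of -0.15 (standard error 0.12), and the groups overlapped. The difference was -0.0009 within low and -0.30 within high spike-in controls. Ndc80 and Spc24 differed by 0.018 and -0.041. Nuf2, named after its values were seen, was at 7.13, 5.93, 6.06 and 7.18 against 5.89, 5.97, 6.05 and 6.87. Arrays IgG 1, IgG 4 and anti-TIE1 4 lay at 6.87 to 7.18 and the other 5 at 5.89 to 6.06. Its pooled within-group SD of 0.57 compares with a median of 0.147 over the mitotic genes and 0.138 over all probe sets. Of the arrays high for Nuf2, IgG 1 was also the highest for Spc24 (7.68) and Ndc80, and anti-TIE1 4 was next to it for Ndc80 (6.62). IgG 4 was among the lower ones for Spc24 (7.33) and Ndc80 (6.54), and anti-TIE1 4 was in the middle for Spc24 (7.40). For Spc25, IgG 4 (7.90) was next to the highest and anti-TIE1 4 (7.54) was the lowest. The difference of -0.38 had a standard error of 0.32 and a 95% interval of -1.08 to 0.32.

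The 16 genes of the spindle, its kinases and cytokinesis were divided evenly, 8 with a higher and 8 with a lower mean in anti-TIE1-treated mice and a median difference of 0.0076. Before adjustment Plk1 passed with a higher value (6.25% of the class, against 2.17% of all probe sets) and Prc1 with a lower one (6.25%, against 3.15%). Plk1, the kinase of centrosome maturation, mitotic entry and cytokinesis, was at 7.25, 7.46, 7.52 and 7.31 on IgG arrays 1 to 4 and at 7.69, 7.62, 7.63 and 7.59 on anti-TIE1 arrays 1 to 4. Every anti-TIE1 array lay above every IgG array, which was so for 1 of 38 mitotic genes (2.63%) and for 1.38% of all probe sets. No mitotic gene showed the reverse, against 1.78% of all probe sets, so groups without overlap in either direction numbered 1 of 38, against 3.17%. The means were 7.63 ± 0.04 (SD, n = 4) and 7.39 ± 0.13 (SD, n = 4), a 1.18-fold higher intensity. The log2 difference was 0.24 (standard error 0.078, 95% interval 0.069 to 0.42, unadjusted p = 0.0108 and adjusted p = 0.872 with limma). The exact two-sided permutation test gave p = 0.0286, the smallest that 4 against 4 arrays allow. Within the arrays of low and of high spike-in controls the difference was 0.25 and 0.24. Without 1 array it ran from 0.20 to 0.29 with an unadjusted p of at most 0.0372 with limma. As the groups did not overlap, none of these differences could have changed sign.

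Prc1, which bundles the antiparallel microtubules of the central spindle, was at 7.44, 7.25, 7.58 and 7.84 in IgG-treated and at 7.49, 7.04, 7.18 and 7.17 in anti-TIE1-treated mice. Arrays 2, 3 and 4 of the anti-TIE1 group were below all IgG arrays, and anti-TIE1 1 was among them. The difference was -0.31 (standard error 0.13, unadjusted p = 0.0444 and adjusted p = 0.930 with limma, exact permutation p = 0.0857), with -0.17 and -0.44 within low and high spike-in controls. Without IgG 4 it was -0.20 (unadjusted p = 0.129 with limma), and with any 1 array left out the unadjusted p was under 0.05 only without IgG 2 or anti-TIE1 1.

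Kif20a, the kinesin-6 that carries cargo to the central spindle, was at 6.21, 6.38, 6.55 and 6.99 against 6.87, 6.91, 6.76 and 6.85. IgG 1 to 3 were below every anti-TIE1 array and IgG 4 above them all. The difference was 0.32 (standard error 0.14, unadjusted p = 0.0527 with limma, exact permutation p = 0.143). Within low and high spike-in controls it was 0.51 and 0.12. Without 1 array it ran from 0.21 (without IgG 1, unadjusted p = 0.156 with limma) to 0.47. The 0.47 came without IgG 4 (unadjusted p = 0.000726, adjusted p = 0.278 with limma), the only array whose removal brought the unadjusted p under 0.05. Kif23, the kinesin of centralspindlin and a partner of the same central spindle, differed by 0.22 (standard error 0.15), with IgG 1 at 6.32 and the other 7 arrays at 6.93 to 7.23. Ect2, the exchange factor that activates RhoA for the cleavage furrow, was at 6.61, 6.31, 6.69 and 6.65 against 6.33, 6.48, 6.55 and 6.28. IgG 2 was among the anti-TIE1 values and the others above them, for a difference of -0.15 (standard error 0.10). Anln, the furrow scaffold anillin, differed by -0.017. The genes of cytokinesis thus stood on both sides of 0.

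The chromosomal passenger complex joins the kinase Aurora B to INCENP, survivin and borealin and corrects faulty attachments. Birc5, encoding survivin, was at 8.10, 8.03, 8.12 and 8.15 against 8.14, 7.93, 7.99 and 8.10, a difference of -0.06 (standard error 0.073). Cdca8, encoding borealin, was at 7.32, 7.33, 7.26 and 7.42 against 7.50, 7.27, 7.51 and 7.40, a difference of 0.092 (standard error 0.077). Aurkb and Incenp differed by 0.12 and -0.12, and the intervals of all 4 subunits held 0. Of the genes that build the spindle, Aurka, a centrosomal kinase, differed by -0.0076, its activator Tpx2 by 0.04, Nek2, which separates centrosomes, by 0.023, Kif11, the motor that pushes the poles apart, by -0.069, Kif2c, which shortens microtubules, by -0.056, and Kif4, a chromosome-bound kinesin, by 0.11.

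Top2a and Mki67 act on whole chromosomes. Top2a, the topoisomerase that untangles sister DNA, was at 6.96, 6.78, 7.33 and 7.10 in IgG-treated and at 6.84, 6.90, 6.88 and 6.90 in anti-TIE1-treated mice. The anti-TIE1 arrays lay close together and inside the IgG range, and the difference was -0.16 (standard error 0.11). Mki67, the gene of the proliferation antigen Ki-67, was at 6.67, 6.67, 6.74 and 6.52 against 6.32, 6.63, 6.68 and 6.78, a difference of -0.046 with a 95% interval of -0.27 to 0.18. Neither difference held its sign in both sets of arrays, at 0.02 and 0.062 within low and -0.34 and -0.15 within high spike-in controls.

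Averaged over the 38 genes, the level was 7.22 ± 0.06 (log2 intensity, SD, n = 4) in IgG-treated mice, at 7.22, 7.14, 7.23 and 7.28, and 7.20 ± 0.0056 (SD, n = 4) in anti-TIE1-treated mice, at 7.20, 7.20, 7.19 and 7.20. The 4 anti-TIE1 averages fell inside the IgG range, whose lowest array was IgG 2 and highest IgG 4. Array IgG 4 was the highest of the 8 for 11 of the 38 genes, among them Ccnb2, Prc1 and Kif20a, and for 20.4% of all probe sets. It was above its group mean for 26 of 38 genes (54.4% of all probe sets) and IgG 2 for 14 of 38 (47.4% of all probe sets). The 4 anti-TIE1 arrays were above theirs for 17 to 20 of 38 genes (46.6% to 54.8% of all probe sets). By class, means were 7.74 ± 0.07 and 7.73 ± 0.07 for cyclins and the APC/C, 7.29 ± 0.08 and 7.21 ± 0.05 for the kinetochore, and 6.95 ± 0.09 and 6.98 ± 0.03 for the spindle, in IgG-treated and anti-TIE1-treated mice (log2 intensity, SD, n = 4 each), with overlapping arrays in each class. Of the 38 genes, 19 had a difference of the same sign within low and high spike-in controls, 8 of 12 in the kinetochore class, 8 of 16 in the spindle class and 3 of 8 in the cyclin class, against 50.7% of all probe sets.

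**Figure D4:**
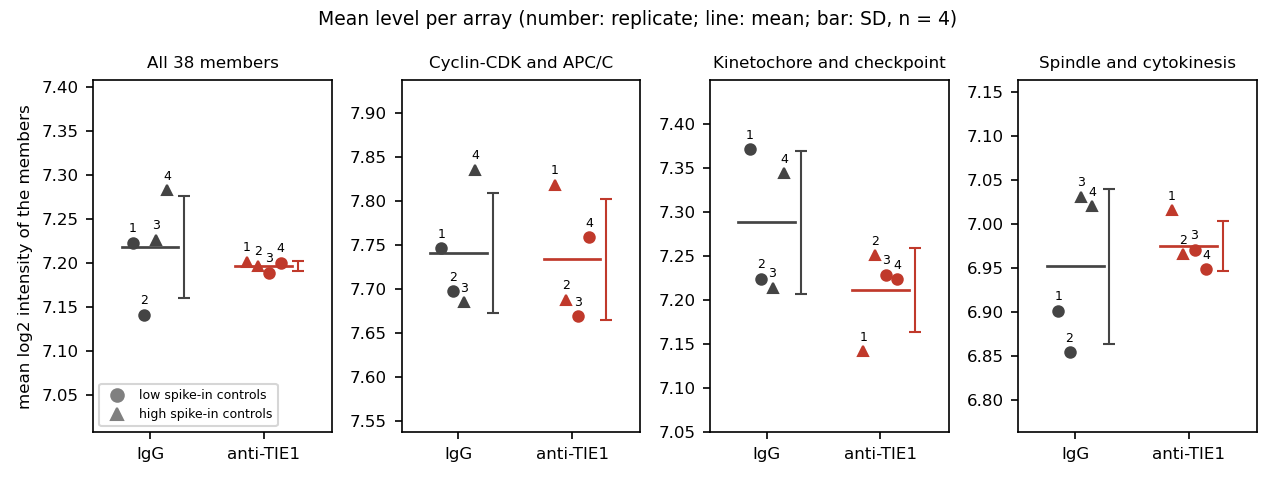
Mean log2 intensity per array (y axis, ranges of equal width) over all 38 mitotic genes and over 3 classes, in IgG-treated (grey) and anti-TIE1-treated (red) mice, with circles for low and triangles for high spike-in controls, lines for group means and bars for SD (n = 4). The anti-TIE1 arrays average 7.19 to 7.20 over all genes and the IgG arrays 7.14 to 7.28.

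Other genes of the same machinery, from 7 lists of 144 genes of which 140 were measured, had a median difference of -0.0029. Before adjustment 3 of them passed with a higher value (2.14%, against 2.17% of all probe sets) and 6 with a lower one (4.29%, against 3.15%). These shares are near the background, and after adjustment 0 passed. The groups did not overlap, with a higher value, for 3 of the 140 (Cdc23, Numa1 and E2f4, 2.14%, against 1.38% of all probe sets). With a lower value this was so for 2 (Fbxo5 and Anapc7), against 1.78%. Of 32 other kinetochore genes 0 were higher and 1 was lower (3.12%, against 3.15%). The lower gene was Ska3, of the SKA complex that follows microtubule ends, with a difference of -0.24 (standard error 0.099), and Cenpo, of the inner kinetochore, had -0.12 (standard error 0.066). Of 33 other spindle and cytokinesis genes 1 was higher (3.03%, against 2.17%) and 2 were lower (6.06%, against 3.15%). Kif20b, a relative of Kif20a in the kinesin-6 family, had a difference of -0.29 (standard error 0.097), opposite in sign to that of Kif20a, and Gtse1, a microtubule regulator of G2, one of 0.22 (standard error 0.096).

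Of 19 APC/C and mitotic exit genes, 4 passed before adjustment, 2 with a higher and 2 with a lower value (10.5% each, against 2.17% and 3.15% of all probe sets). Fbxo5, encoding EMI1, the inhibitor that keeps the APC/C off until mitosis, was at 7.45, 7.34, 7.34 and 7.39 on IgG arrays 1 to 4 and at 6.86, 7.16, 7.15 and 7.14 on anti-TIE1 arrays 1 to 4. All anti-TIE1 arrays were below all IgG arrays, and the difference was -0.30 (standard error 0.084, unadjusted p = 0.00483 and adjusted p = 0.840 with limma). Cdc14a, a phosphatase whose yeast relative drives mitotic exit, had a difference of 0.33 (standard error 0.12). Core subunits of the APC/C did not share a direction, as Anapc7 had -0.21 and Cdc23 0.18, both without overlap of the groups and both named after their values were seen. In this list the groups did not overlap for 1 gene with a higher value (5.26%, against 1.38% of all probe sets) and 2 with a lower one (against 1.78%).

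Among other cyclins and CDK regulators 0 of 13 genes were called, with 0.12 for Arpp19, an inhibitor of the phosphatase PP2A in mitosis, and -0.19 for Cks1b, a CDK subunit. Of 18 condensin and cohesin genes 0 were called, with 0.16 for the cohesin subunit Stag1 and -0.17 for Esco2, which acetylates cohesin. Of 18 genes of the transcriptional control of mitosis 0 were higher and 1 was lower (5.56%, against 3.15% of all probe sets). The lower gene was E2f2, an activator of S phase genes, with -0.21 (standard error 0.076). E2f4, the repressor E2F of resting cells and part of the complex that binds mitotic promoters, was at 9.86, 9.74, 9.77 and 9.74 against 9.89, 9.93, 9.90 and 9.90. Its groups did not overlap, as for 1 of the 18 genes (5.56%, against 1.38% of all probe sets). The difference of E2f4 was 0.13 (standard error 0.064, unadjusted p = 0.0707 with limma). Of 7 CDK inhibitors 0 were called, and Cdkn2c and Cdkn2b, which block CDK4 and CDK6, had differences of 0.099 and -0.066.

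**Figure D5:**
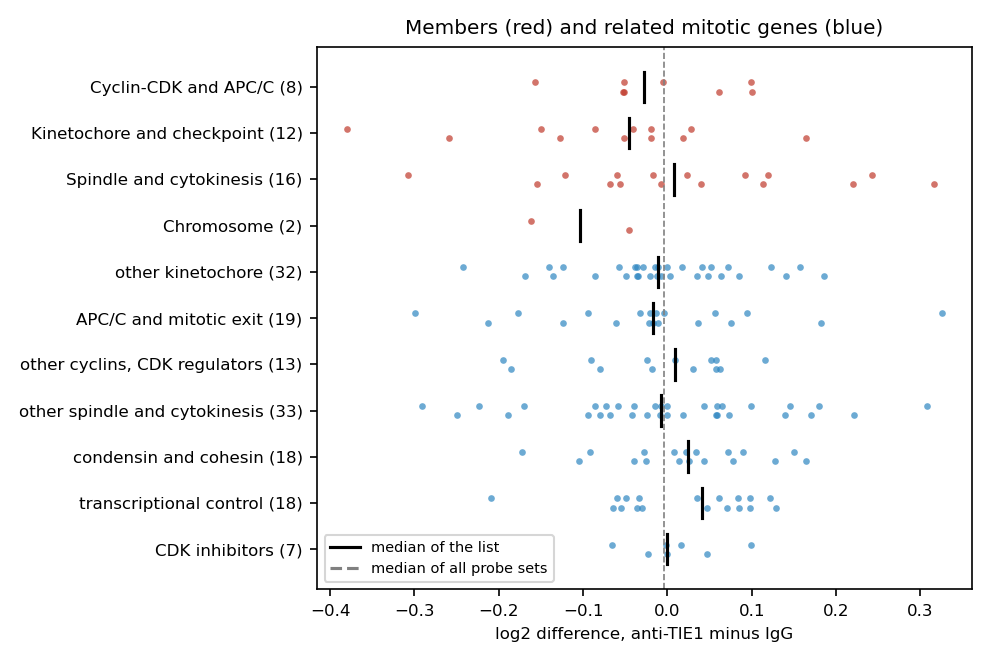
Log2 difference between anti-TIE1-treated and IgG-treated mice (x axis) of each gene, as points, in the 4 classes of mitotic genes (red) and in 7 lists of related genes (blue), with the number measured in brackets, black bars for list medians and a dashed line for the median of all probe sets (-0.0045). All list medians except that of the 2 chromosome genes (-0.10) lie between -0.046 and 0.041.

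TTTGAA was less frequent in each of these lists than in the members' promoters (77.1%). It occurred in 62.5% of 32 promoters of the other spindle genes and 29.4% of 34 of the other kinetochore genes. Condensin and cohesin genes had it in 46.7% of 15 promoters and genes of transcriptional control in 34.8% of 23. In the APC/C list it occurred in 16% of 25 promoters, among other cyclins and CDK regulators in 18.2% of 11 and among CDK inhibitors in 11.1% of 9. These 3 lists were near the 17.9% of all promoters.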

How the data were processed

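RNA of sorted lung EC was labelled with biotin and hybridized to Clariom S mouse arrays, 1 per mouse. The values deposited are intensities on a linear scale. The paper's methods name only the Ingenuity Pathway Analysis software for normalization, with the algorithm not given in the sources used here. Titles set the groups, and 0 columns of other samples were found. Of 29129 probe sets, 6923 are array controls, and 2 more had too many missing values. With limma 3.58.1 (R 4.3.3), log2 intensities were compared as anti-TIE1 minus IgG, with Benjamini-Hochberg adjustment over 22204 probe sets. Symbols come from the platform annotation (19572 probe sets with 1 symbol), and the brightest probe set was to stand for a gene. The members and lists were chosen with earlier results of these data known.

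Named with values on every array were, in each class, the 4 genes with the smallest p and the 3 brightest, and both chromosome genes. In each related list the 2 genes with the smallest p were named by their difference, with all arrays given for Fbxo5 and E2f4, chosen after their values were seen. Counts are without list tests. Tried besides were quantile and median scaling, leaving out dim probe sets, a trended robust variance, weighted arrays, blocks by replicate number or spike-in controls, a Mann-Whitney test and each array left out. Limma was checked on simulated arrays. Mice are the replicates, and their number limits the precision.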

Additional observations from a re-analysis of the deposited data

Results flagged for a closer look

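For Cenpe, array IgG 2 stood apart from the other 3 IgG arrays, at 6.36 against 6.48 to 6.50 (log2 intensity), with a gap of 0.867 of the group's range. Of 44 groups looked at in this way 1 stood out, where chance gives about 1 in 20.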

How the results depend on the processing

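After adjustment 0 mitotic genes passed 0.05 with limma under the settings tried. With the exact Mann-Whitney test none could pass, as its p is at least 0.029 for 4 against 4 arrays. That value needs groups without overlap, which 3.17% of all probe sets had. Of the genes at an unadjusted p under 0.05, 2 instead of 1 were higher with quantile normalization, median centring, array weights, the replicate block and the spike-in controls as a block (Kif20a joining Plk1), and 0 with the filter on dim probe sets and within high spike-in controls. The genes lower were 1 instead of 2 with quantile normalization, array weights, the replicate block and the spike-in block (Prc1), and within high controls (Top2a). They were 0 with the filter, within low controls and with the Mann-Whitney test. Equal counts were not always the same genes. Within low controls the 1 gene higher was Kif20a, while Plk1 had an unadjusted p of 0.0653 with limma. The filter, set at the median level, kept 10 of the 38 genes and removed Plk1, Ttk and Prc1, and of the spindle class it kept Birc5 alone (median -0.0603). Leaving out 1 array gave 1 to 2 higher (2 without IgG 2, 3 or 4), 0 to 4 lower (4 without IgG 2, 0 without IgG 1, IgG 4 or anti-TIE1 4, 1 without anti-TIE1 1, 2 or 3) and 0 at an adjusted p under 0.05.

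The median difference ran from -0.037 to -0.021 over all genes without 1 array, from -0.045 to 0.034 for cyclins and the APC/C, from -0.084 to -0.031 for the kinetochore and from -0.023 to 0.046 for the spindle. Of 314 differences of the 18 named genes under alternatives, 9 changed sign. Within low spike-in controls these were Ube2c (-0.049), Bub3 (-0.0499), Top2a (0.0197) and Mki67 (0.062). Without 1 array, Ccnb2 ran from -0.25 to 0.007, Bub3 from -0.024 to 0.089, Cenpa from -0.042 to 0.013 and Mki67 from -0.11 to 0.049, and the cause was not tested. Deviations from the group means of arrays with the same number correlated at -0.05 to 0.0066 over all probe sets, so the number was taken only as a name. Each gene has 1 probe set, so there were no probe sets to average. Signal over background limits what can be seen in the 33 genes within the range of the background controls.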
